A study of Homo sapiens with 6 samples.

Results

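The fibroblast growth factor receptor gene FGFR1 and 9 genes that restrain signalling through the kinase ERK were examined in MEC-1 cells after knockdown of UGT2B17. The 10 genes were DUSP1, DUSP2, DUSP4, DUSP5, DUSP6, SPRY1, SPRY2, SPRED1 and SPRED2 besides FGFR1, out of 18404 genes measured. Each was read on 1 Affymetrix probe set annotated to it alone; a gene with several such probe sets would have been read on the one with the highest mean, but none of the 10 had more than 1. MEC-1 is an established B cell line from chronic lymphocytic leukemia, a cancer of mature B cells. Of the 6 arrays, 3 came from cells given an shRNA against UGT2B17 by lentivirus, and 3 from cells given a scrambled shRNA by lentivirus. Both groups were grown in RPMI with 10% fetal calf serum and without phenol red or antibiotics. The series record calls the 3 replicates per group independent, but the labels name neither the number of targeting hairpins nor separate cultures. Loss of UGT2B17, off-target effects of a hairpin and differences among cultures therefore cannot be told apart. The p-values rest on the array-to-array spread, which may be technical.

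FGFR1 is a receptor tyrosine kinase that, when fibroblast growth factors bind it, recruits adaptor proteins and switches on RAS, which activates RAF, MEK and then ERK. ERK enters the nucleus and turns on genes, among them those of its own inhibitors. The dual-specificity phosphatases (DUSPs) remove phosphate from ERK and related kinases, while the Sprouty (SPRY) and SPRED proteins block the pathway upstream, at the level of receptors, RAS and RAF. Because several of these inhibitors are induced by ERK, their transcripts are often read as a record of ERK signalling in tumours, B cell cancers included.

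UGT2B17 glucuronidates steroids and other small molecules, and its transcript was lower with its shRNA: 3.21 ± 0.05 against 3.85 ± 0.14 log2 units in scrambled shRNA cells (SD, n = 3 each), on a dim probe set. Probe sets that name UGT2B17 together with other genes differed by −1.34 (2 genes named), −1.50 (5 genes) and −0.21 (7 genes) log2 units, knockdown minus scrambled. Any pair of arrays correlated at r = 0.991 to 0.996. The array least like its group was scrambled replicate 3, which lay a root mean square of 0.166 log2 units from the group mean, while the other arrays lay 0.117 to 0.142 away. The B cell markers MS4A1, CD79A, CD79B, CD22, PAX5 and BLK were bright, between percentiles 88.7 and 99.6 of all genes, and none of the 6 passed the test. The other 2 B cell markers listed were not analysed here. Markers of T and NK cells (9 genes) lay between percentiles 19.4 and 51.5, those of monocytes and granulocytes (5 genes) between 0.837 and 46.8, and those of epithelial cells and fibroblasts (8 genes) between 5.87 and 71.1. Of these, KLRD1 fell and KRT18 rose, by 0.64 and 0.32 log2 units (limma, adjusted p = 0.0062 and 0.0494). Others that did not pass were NKG7 at 0.25 ± 0.06, in a T and NK cell list with 7 of 9 genes above 0, and EPCAM at −0.36 ± 0.12 (SE). ITGAM, on myeloid and NK cells, at −0.60 ± 0.15, and CD14 at −0.19 ± 0.07 did not pass either. They belong to the monocyte and granulocyte list, which had 1 of 5 genes above 0. The part of other cells in the results was not tested. The mean level of these lists ranged from 5.61 to 5.72 in knockdown and 5.65 to 5.72 log2 units in scrambled arrays for T and NK cells, from 5.26 to 5.34 and 5.33 to 5.55 for monocytes and granulocytes, and from 6.41 to 6.45 and 6.34 to 6.49 for epithelial cells and fibroblasts. In bulk RNA, fewer cells with a transcript and less of it per cell cannot be told apart.

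Among the 10 genes, FGFR1 and DUSP4 were higher and SPRED2 was lower in UGT2B17 knockdown cells. All differences are in log2 units of the deposited expression values, knockdown minus scrambled, so that 1 unit is a doubling. In the test over all 18404 genes (limma, Benjamini-Hochberg adjusted p under 0.05), 2 of the 10 were called higher and 1 lower, where 1.92% and 1.69% of all genes were called in these directions. The 3 knockdown values did not overlap the 3 scrambled values for 6 of the 10 genes, as for 24.8% of all genes. The median difference of the 10 was 0.16, against −0.002 for all genes, and 9 of the 10 lay above 0. The set was selected on differences in these same arrays, in which FGFR1 and DUSP4 already stood out, with the others added by function. These counts therefore describe the genes, and no p-value is given for any of the 10.

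**Figure D1:**
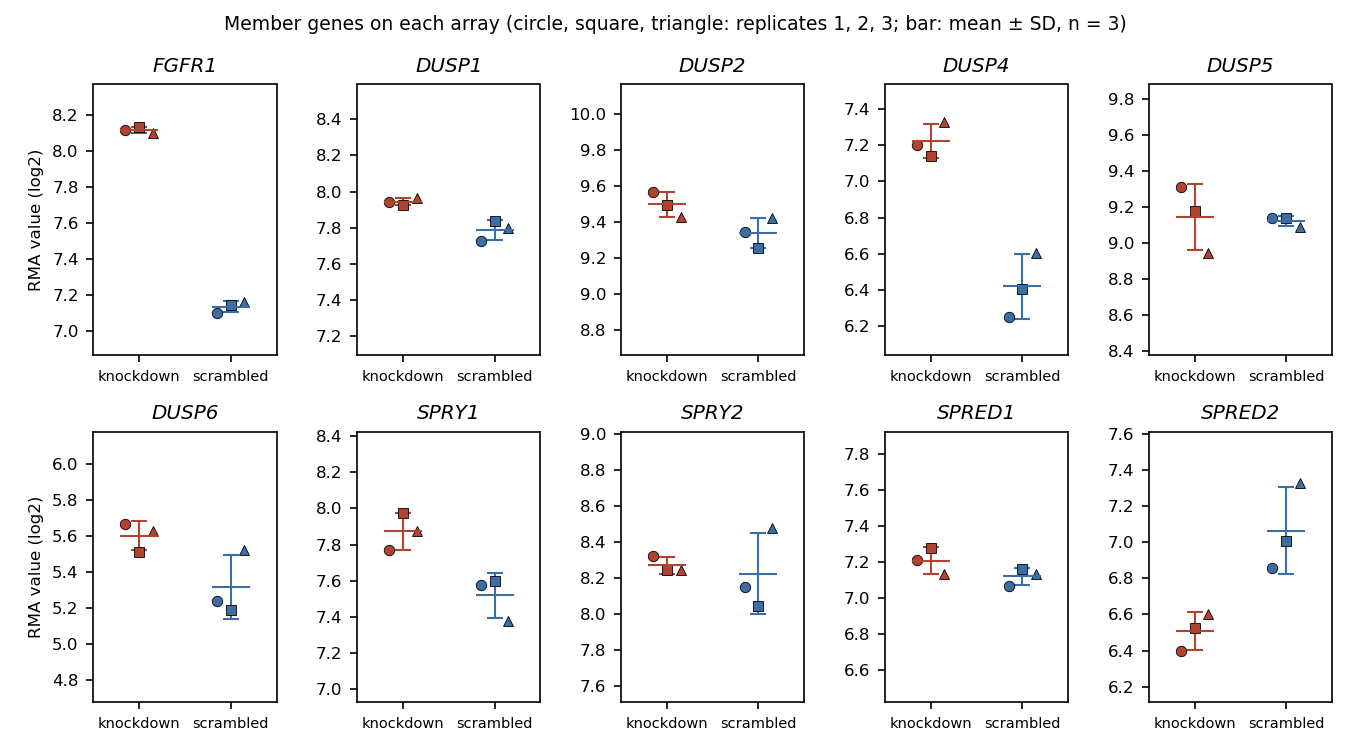
Expression of the 10 genes on each array, as the deposited log2 values (vertical axis, 1 panel per gene, each spanning 1.5 log2 units), with UGT2B17 knockdown left and scrambled shRNA right. Points are arrays, bars are mean ± SD (n = 3). FGFR1 and DUSP4 stand higher and SPRED2 lower in knockdown cells, without overlap, while DUSP5, DUSP6, SPRY2 and SPRED1 overlap.

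The receptor FGFR1 read 8.11, 8.13 and 8.10 log2 units in the 3 knockdown arrays, against 7.10, 7.15 and 7.16 in the 3 scrambled arrays. The groups were widely separated, and the arrays within each differed little, with an SD of 0.02 in knockdown and 0.03 in scrambled cells. The difference was 0.98 ± 0.06 (SE), with a 95% interval of 0.84 to 1.12, or 1.97-fold higher in knockdown cells. By absolute difference FGFR1 ranked 20th of 18404 genes. Its value with any one array left out ran from 0.96 to 0.99. The probe set is annotated to FGFR1 as a gene, and which of its transcripts it covers was not examined. Splice forms of FGFR1, which differ in the growth factors they bind, were therefore not separated.

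The nuclear phosphatase DUSP4, which acts on ERK and on the stress kinase JNK, read 7.20, 7.14 and 7.33 in knockdown arrays, against 6.25, 6.40 and 6.61 in scrambled arrays. The lowest knockdown value stood well above the highest scrambled value, that of scrambled replicate 3. The difference was 0.81 ± 0.10 (SE; 95% interval 0.58 to 1.03), or 1.75-fold higher in knockdown cells, and DUSP4 ranked 53rd by absolute difference. It was 0.90 without scrambled replicate 3 and 0.72 without scrambled replicate 1.

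Other nuclear phosphatases differed less. DUSP1, a fast-induced phosphatase with a preference for p38 and JNK, read 7.94, 7.92 and 7.96 in knockdown arrays, against 7.72, 7.83 and 7.80 in scrambled arrays. Its groups did not overlap, but the difference of 0.16 ± 0.06 was small and did not pass. DUSP2, a phosphatase of activated lymphocytes, read 9.57, 9.49 and 9.43 in knockdown arrays, against 9.34, 9.26 and 9.42 in scrambled arrays. Knockdown replicate 3 and scrambled replicate 3 were nearly level, and the difference of 0.16 ± 0.07 did not pass. DUSP5, which is specific for ERK in the nucleus, read 9.31, 9.18 and 8.95 in knockdown arrays, against 9.14, 9.14 and 9.09 in scrambled arrays. The knockdown arrays of DUSP5 spread to both sides of the scrambled ones, with a difference of 0.02 ± 0.09 (SE) and a 95% interval of −0.19 to 0.23.

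DUSP6, the ERK-specific phosphatase of the cytoplasm and a much used readout of FGF and ERK signalling, was on the dimmest probe set of the 10, at percentile 25.8 of all genes. It read 5.67, 5.51 and 5.63 in knockdown arrays, against 5.24, 5.19 and 5.52 in scrambled arrays. Scrambled replicate 3 lay just above the lowest knockdown array, and the other scrambled arrays lay below all 3. The difference of 0.28 ± 0.10 (SE, 95% interval 0.07 to 0.50) did not pass. Without scrambled replicate 3 it was 0.39 and passed. Without scrambled replicate 1 it was 0.25 and without scrambled replicate 2 it was 0.22, and neither passed.

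Among the Sprouty genes, SPRY1 read 7.77, 7.97 and 7.87 in knockdown arrays, against 7.58, 7.60 and 7.38 in scrambled arrays. All 3 knockdown values were above all 3 scrambled values. The difference of 0.35 ± 0.08 (SE; 95% interval 0.16 to 0.55) did not pass over all genes, though it did when only the brighter genes were tested. SPRY2 read 8.32, 8.24 and 8.24 in knockdown arrays, against 8.15, 8.05 and 8.48 in scrambled arrays. Scrambled replicate 3 was the highest array of SPRY2 and the other 2 scrambled arrays were the lowest. Its difference was 0.05 ± 0.11 (SE, 95% interval −0.20 to 0.29) with all arrays. It was 0.17 without scrambled replicate 3, 0.01 without scrambled replicate 1 and −0.04 without scrambled replicate 2. None of these passed.

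The SPRED proteins bind neurofibromin, which switches RAS off, and bring it to the membrane. SPRED2 read 6.40, 6.52 and 6.60 in knockdown arrays, against 6.86, 7.01 and 7.33 in scrambled arrays. Every knockdown array was below every scrambled array, and scrambled replicate 3 was the highest. The difference was −0.56 ± 0.12 (SE; 95% interval −0.82 to −0.29), or 1.47-fold lower in knockdown cells, and −0.42 without scrambled replicate 3. SPRED2 was no longer called without knockdown replicate 1, 2 or 3, without scrambled replicate 2, or when all deposited probe sets were tested. SPRED1 read 7.21, 7.28 and 7.13 in knockdown arrays, against 7.07, 7.16 and 7.14 in scrambled arrays. The SPRED1 groups overlapped, with a difference of 0.09 ± 0.07 (SE; 95% interval −0.07 to 0.24).

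**Figure D2:**
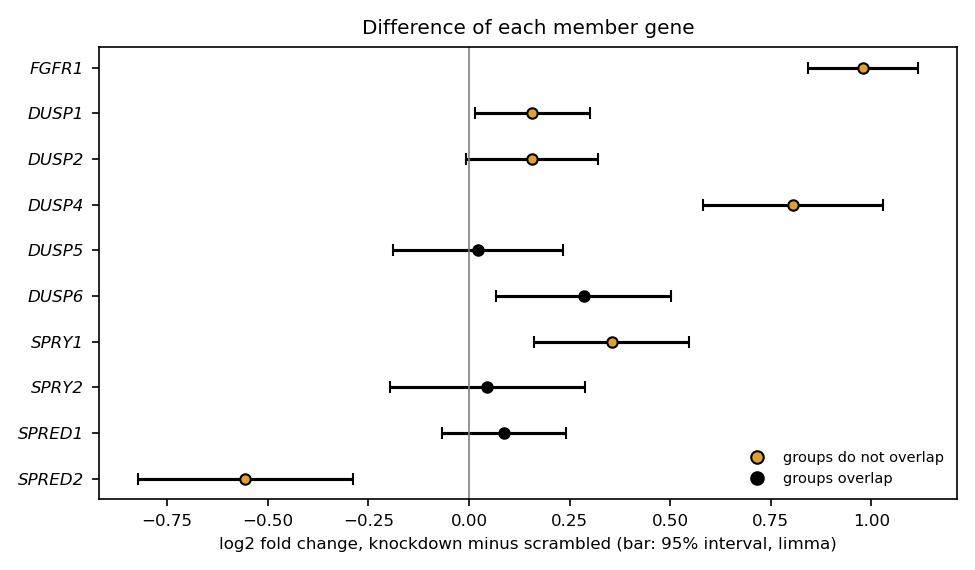
Difference of each of the 10 genes between UGT2B17 knockdown and scrambled shRNA (horizontal axis, log2 fold change; points with 95% intervals from limma, 3 arrays per group). The intervals of FGFR1 (0.84 to 1.12) and DUSP4 (0.58 to 1.03) lie furthest above 0 and that of SPRED2 (−0.82 to −0.29) lies below it.

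The upstream regions of SPRED2 and DUSP1 are shown because SPRED2 was the called gene that fell and because DUSP1 carried the one cyclic AMP response element found among the genes searched. The search covered 11 RefSeq (GRCh38.p14) transcription start windows, for 7 of the 10 genes. No window was available for DUSP5, and FGFR1 and DUSP4 were left out of the search. Matches upstream of these genes were therefore not looked for. The 250 bases before each start were searched on both strands. The motifs were CCGGAAG (bound by ETS factors, which ERK phosphorylates), TGANTCA (AP-1) and TGACGTCA (cyclic AMP response element). TGATGNAA (amino acid response element) and the CArG box of serum response factor were also searched for. Sequences run 5′ to 3′ towards the start and capitals mark a match. The windows lie on the minus strand, at chr2:65432600-65432849 for the upstream start of SPRED2, chr2:65366779-65367028 for its downstream start and chr5:172771196-172771445 for DUSP1.
SPRED2 upstream start: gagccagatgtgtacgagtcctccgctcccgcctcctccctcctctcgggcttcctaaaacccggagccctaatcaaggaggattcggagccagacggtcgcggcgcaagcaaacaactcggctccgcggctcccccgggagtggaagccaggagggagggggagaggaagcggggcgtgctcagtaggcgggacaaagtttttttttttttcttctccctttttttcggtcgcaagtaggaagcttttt
SPRED2 downstream start: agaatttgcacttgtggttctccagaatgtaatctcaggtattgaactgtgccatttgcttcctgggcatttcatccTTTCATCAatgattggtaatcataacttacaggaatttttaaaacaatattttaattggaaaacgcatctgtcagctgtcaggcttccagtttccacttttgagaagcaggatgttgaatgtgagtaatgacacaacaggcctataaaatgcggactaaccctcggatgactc
DUSP1: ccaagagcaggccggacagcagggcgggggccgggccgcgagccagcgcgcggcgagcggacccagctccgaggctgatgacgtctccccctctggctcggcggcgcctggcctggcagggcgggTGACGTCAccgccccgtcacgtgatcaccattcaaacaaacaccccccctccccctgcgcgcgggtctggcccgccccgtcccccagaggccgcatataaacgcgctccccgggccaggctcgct
The upstream SPRED2 window held no match, and its G and C content was 58.8%. In the downstream SPRED2 window, with 39.2% G and C, TTTCATCA (TGATGNAA read on the other strand) lay 173 to 166 bases before the start, a motif in 3.14% of all 35116 windows. The DUSP1 window, with 74.4% G and C, held TGACGTCA 125 to 118 bases before the start, a motif in 1.65% of all windows. The only other match in the windows searched was CCGGAAG, 67 to 61 bases before the downstream start of SPRY1, a motif in 8.52% of windows. TGANTCA, in 6.57% of windows, and the CArG box, in 1.16%, had no match in the 11 windows, and no match overlapped another.

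FGFR1 and DUSP4 both lie on chromosome 8, with 40 measured genes between them in RefSeq gene order. Of these 40, 1 rose and 0 fell (2.5%, against 3.61% of all genes called), with a median difference of 0.003. That gene was PLPP5, a lipid phosphate phosphatase and the third measured gene before FGFR1. PLPP5 read 9.38, 9.39 and 9.23 in knockdown arrays, against 8.76, 8.61 and 8.32 in scrambled arrays, and rose by 0.77 ± 0.11 (SE; limma, adjusted p = 0.0094). On the other side, TACC1, a centrosomal coiled-coil protein and the second gene after FGFR1, read 10.67, 10.72 and 10.63 in knockdown arrays, against 10.29, 10.31 and 10.34 in scrambled arrays, and rose by 0.36 ± 0.06 (adjusted p = 0.0182). Of the 10 nearest measured genes, 5 on each side, 2 thus rose beside FGFR1, where 1.92% of all genes were called higher. The differences of the 10 ran from −0.16 to 0.77. The adjacent genes LETM2 and LINC03042 read 0.16 ± 0.07 and −0.09 ± 0.08, which did not pass.

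Beside DUSP4, 1 of the 10 nearest genes rose, FZD3, a Wnt receptor, by 0.37 ± 0.08 (limma, adjusted p = 0.0408). The differences of the 10 ran from −0.09 to 0.41. The largest was that of HMBOX1, named for its size, at 0.41 ± 0.12, which did not pass. The genes adjacent to DUSP4, KIF13B and SARAF, read 0.05 ± 0.08 and 0.02 ± 0.08 and did not pass. None of the 10 genes nearest SPRED2 passed, and their differences ran from −0.18 to 0.19; the adjacent genes were RAB1A at −0.11 ± 0.07 and MEIS1 at −0.02 ± 0.06. Among the neighbours of the other 7 genes, TMTC3, near DUSP6, fell by 0.36 ± 0.07 (adjusted p = 0.0223) and no other passed.

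**Figure D3:**
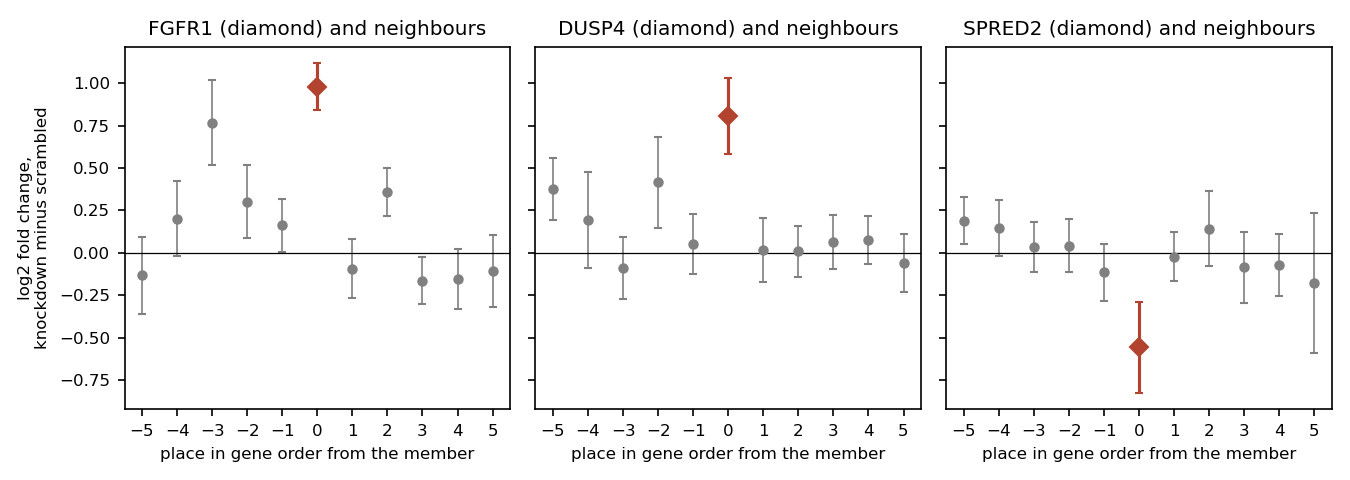
Differences of FGFR1, DUSP4 and SPRED2 (diamonds) and of the 5 measured genes on each side (grey points), in RefSeq gene order (horizontal axis, place relative to the gene). The vertical axis is the log2 fold change, knockdown minus scrambled, with 95% intervals from limma (3 arrays per group); PLPP5, 3 places before FGFR1, stands at 0.77 and the neighbours of SPRED2 stay between −0.18 and 0.19.

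The genes most like FGFR1 over the 6 arrays, by the smallest root mean square distance between values centred on each gene's own mean, were SLC7A11, the cystine/glutamate exchanger, at 0.07 log2 units, the membrane protein gene TM6SF1 at 0.08, GSTA4, a glutathione transferase, at 0.09, CLNK, an adaptor of immune receptors, at 0.09, and SPTSSB, a subunit of serine palmitoyltransferase, at 0.10. Their differences, from 0.84 for CLNK to 0.98 for SPTSSB and SLC7A11, were close to that of FGFR1, which follows from how they were picked. Those most like DUSP4 were KLRC4-KLRK1 at 0.08, the antiviral synthetase gene OAS3 at 0.08, CLNK at 0.10, ZDHHC12, a protein palmitoyltransferase, at 0.11, and KLRC1, a receptor of NK cells, at 0.11. Picked in the same way, KLRC4-KLRK1 was higher in knockdown arrays by 0.83 and KLRC1 by 0.65, while the NK cell marker KLRD1 fell by 0.64. KLRC4-KLRK1 is a read-through locus whose probes may share signal with its component genes.

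The rest of the pathway was read through 10 lists of genes by textbook role, without the 10 genes above. The lists were drawn up with earlier results of these data known. Of 197 distinct genes measured, 5 rose and 6 fell, or 5.58%, against 3.61% of all genes, and their median difference was 0.01. With each array centred on its median, 3 rose and 6 fell. The count changed with the arrays used, as did that of all genes, while the differences of the 11 called genes kept their direction. Leaving out a knockdown array gave 0, 1 and 0 calls (replicates 1, 2 and 3), and leaving out a scrambled array gave 7, 3 and 14, so none of the calls described next held without knockdown replicate 1 or 3, nor over all deposited probe sets. In limma, 41 of the 197 genes, or 20.8%, had an unadjusted p under 0.05 with all arrays, near the 18.2% of all genes, and 32 and 34 had one without knockdown replicates 1 and 3, and 34 over all deposited probe sets.

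Among ligands and other receptors, DDR1 alone passed. Of the 18 FGF ligand genes, 0 passed and 0 had an unadjusted p under 0.05 in limma, with a median of −0.01. Their levels lay between percentiles 2.58 and 54.9 of all genes, and whether each was expressed was not tested. FGF19 read −0.19 ± 0.09 (−0.10 without knockdown replicate 3) and FGF8 −0.15 ± 0.08 (−0.09 with array weights). Of 11 other FGF receptors, coreceptors and binding proteins, 0 passed and 2 had an unadjusted p under 0.05, which is 18.2%, as over all genes. These were FIBP, an intracellular FGF-binding protein, at −0.37 ± 0.09 and the coreceptor KL, klotho, at −0.15 ± 0.07. The closest relatives of FGFR1, named for their kinship, read −0.01 ± 0.07 for FGFR2, 0.05 ± 0.07 for FGFR3 and 0.10 ± 0.06 for FGFR4 (SE). Their levels were at percentiles 12.4, 35.6 and 29.2 of all genes, in this order. Among 49 receptor tyrosine kinases of other families, 0 rose and 1 fell: DDR1, a collagen receptor, read 8.35, 8.27 and 8.31 in knockdown arrays, against 9.02, 8.77 and 8.77 in scrambled arrays, and fell by 0.55 ± 0.08 (adjusted p = 0.0111).

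Of 13 adaptors that link receptors to RAS, 1 rose and 0 fell. GAB2, a docking protein that carries the phosphatase SHP2 to activated receptors, read 6.16, 6.10 and 6.35 in knockdown arrays, against 5.68, 5.74 and 5.59 in scrambled arrays, and rose by 0.54 ± 0.08 (adjusted p = 0.0127). None of 16 RAS proteins and RAS regulators passed, and 4 had an unadjusted p under 0.05 in limma; RASA3, which switches RAS off, read 0.31 ± 0.08 and RASGRP3, which switches it on in B cells, 0.21 ± 0.07.

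Of 18 genes of the RAF, MEK and ERK module, 2 rose and 0 fell, and both encode proteins that hold the kinases in place. PEA15, which binds ERK and keeps it in the cytoplasm, read 10.88, 10.87 and 10.95 in knockdown arrays, against 10.53, 10.45 and 10.58 in scrambled arrays, and rose by 0.38 ± 0.07 (adjusted p = 0.0182). KSR1, a scaffold for RAF, MEK and ERK, rose by 0.31 ± 0.07 (adjusted p = 0.039), a call lost whichever of the 6 arrays was left out and with arrays centred on their median. Of 11 kinases of the JNK, p38 and ERK5 branches, MAPK10, itself a JNK, fell by 0.43 ± 0.08 (limma, adjusted p = 0.0286) and 0 rose.

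Among 20 other dual-specificity phosphatases and relatives, 0 rose and 1 fell: STYX, a catalytically inactive relative that binds ERK in the nucleus, at −0.28 ± 0.06 (adjusted p = 0.0412), a call lost after another quantile normalisation and on leaving out any array but scrambled replicate 3. None of 14 other Sprouty, SPRED and receptor feedback genes passed, and 2 had an unadjusted p under 0.05 in limma, ERRFI1, an inhibitor of EGFR, at −0.19 ± 0.06 and LRIG1, which restrains several receptor kinases, at −0.26 ± 0.09. The remaining family members SPRY4, SPRY3 and SPRED3, named for their kinship, read 0.01 ± 0.08, 0.00 ± 0.13 and 0.03 ± 0.10.

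Genes that ERK induces or regulates, 29 in number, held 2 that rose and 3 that fell, with 12 (41.4%, against 18.2% of all genes) at an unadjusted p under 0.05 and a median of 0.06. EGR1, an early transcription factor downstream of ERK, read 9.38, 9.11 and 9.18 in knockdown arrays, against 8.53, 8.67 and 8.89 in scrambled arrays, and rose by 0.53 ± 0.11 (adjusted p = 0.034). PLAUR, the urokinase receptor, rose by 0.39 ± 0.08 (adjusted p = 0.0328), a call also lost with arrays centred on their median. In the other direction, IER3, an early response gene, fell by 0.33 ± 0.06 (adjusted p = 0.0289) and ELK3, an ETS factor that partners serum response factor, fell by 0.34 ± 0.07 (adjusted p = 0.0426), a call lost whichever array was left out. CCND1, cyclin D1, fell by 0.62 ± 0.14 (adjusted p = 0.0434), and was named after its value was seen. It read 7.95, 7.995 and 7.92 in knockdown arrays, against 8.52, 8.30 and 8.91 in scrambled arrays, and the difference was −0.45 without scrambled replicate 3, −0.76 without scrambled replicate 2 and −0.38 with array weights.

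**Figure D4:**
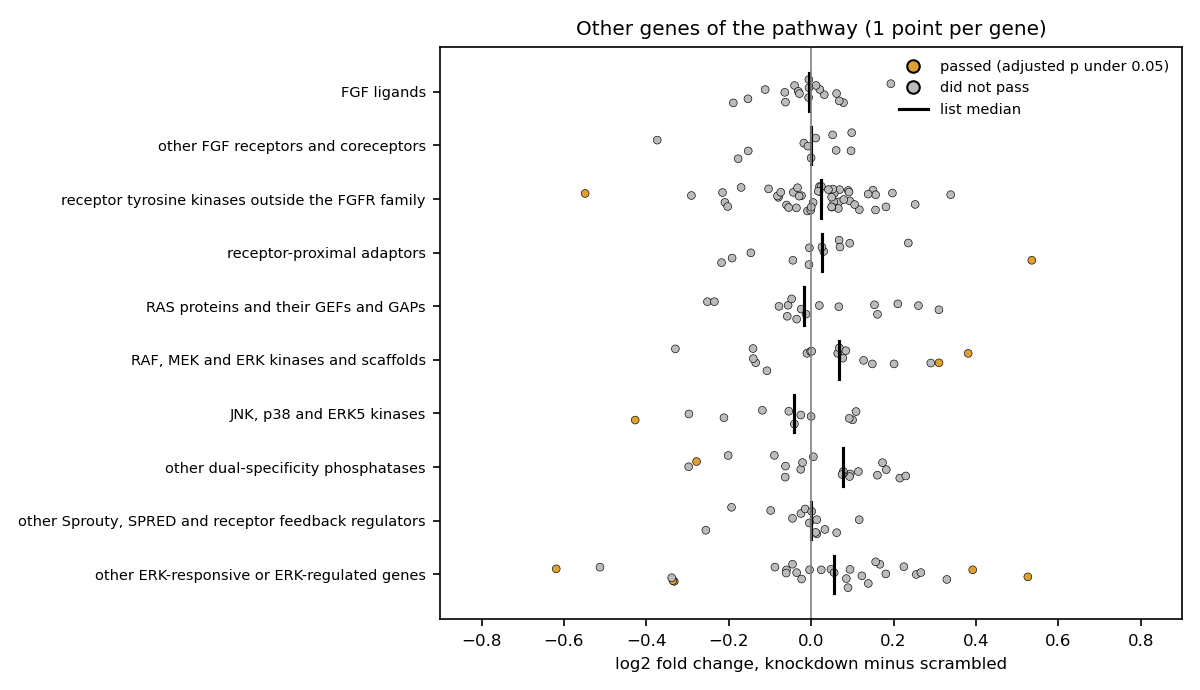
Differences of the other pathway genes, 1 point per gene, by list (rows). The horizontal axis is the log2 fold change, knockdown minus scrambled; vertical bars are list medians, and orange points passed (limma, adjusted p under 0.05). FGF ligands, with levels between percentiles 2.58 and 54.9 of all genes, cluster around 0. GAB2 at 0.54 and EGR1 at 0.53 lie furthest right and CCND1 at −0.62 and DDR1 at −0.55 furthest left.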

How the data were processed

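Biotin-labelled total RNA of each MEC-1 sample was read on an Affymetrix array of its own, per the labels. The deposited log2 values, from 2.20 to 14.3 over 32321 probe sets, were made with RMA (background correction, quantile normalisation and probe summary), per the submitters' processing notes; neither an RMA version nor a genome build is given in the sources used here. RMA compresses differences of dim probe sets. Probe sets naming 1 gene in the platform annotation were used, the brightest per gene, which left 18404 genes with no filter on low values. Groups were taken from the labels, and the test was limma (version 3.58.1, under R 4.3.3; two-sided moderated test from eBayes, no covariate, Benjamini-Hochberg adjustment over all genes, threshold 0.05). The number of arrays limits the precision. Promoter windows were searched and figures drawn in Python 3.11.15.

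The 10 genes, the lists, tests and alternatives were chosen with earlier results of these data known. The text names the 10 genes, UGT2B17, per list up to 4 genes that passed or else the 2 with the smallest p, the 5 genes most like FGFR1 and DUSP4, and adjacent or called neighbours; exceptions are marked. Same-numbered arrays did not deviate together (r from −0.081 to −0.008), so replicate numbers were not taken as pairs. Alternatives were another quantile normalisation, median centring, brighter genes only, an intensity trend or robust prior, array weights, wider sets of probe sets, a replicate block, other thresholds and leaving out each array.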

Additional observations from a re-analysis of the deposited data

How the results depend on the processing

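The differences of the 10 genes moved by less than 1 SD between replicates in all 147 refits, and none of the called ones changed sign. Most of these refits could not exceed that limit. An intensity trend, a robust prior, brighter genes only, wider sets of probe sets and the replicate block leave each difference as it was. Leaving out 1 array cannot shift it by 1 SD. Only another quantile normalisation, median centring and array weights could have done so. FGFR1 and DUSP4 were called wherever they were tested; DUSP4, DUSP6 and SPRED2 fell below the brightness limit of the test on brighter genes. The number of the 10 genes called, 3, was 6 with array weights, which added DUSP2, DUSP6 and SPRY1, and ran from 2 to 4 with 1 array left out. For all genes, the 665 calls became 3511 with array weights, 165 over all deposited probe sets, 367 with the replicate block, 1207 at an adjusted p under 0.1, 237 when a log2 difference of 0.5 or more was also required, and 152 to 759 with 1 array left out. For the 197 other pathway genes, the 11 calls became 44, 0, 3, 18 and 4 under the same 5 settings and 0 to 14 with 1 array left out; where the limma test over all deposited probe sets called 0, 34 had an unadjusted p under 0.05. Of 163 refits of the 11 named pathway genes that passed, 73 lost the call and 0 changed sign. Of 118 refits of the 8 named pathway genes that did not pass, 11 gained a call. The replicate block, with numbers that do not pair the arrays, kept the calls of FGFR1, DUSP4 and SPRED2. None of the 10 genes had another probe set of its own, so that alternative was not run. The cause of the shifts in calls was not tested, and neither was the part of fewer arrays or of a larger number of tests.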
